A study of Homo sapiens with 4 samples.

Results

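Differences between mutant forms of YAP are described for MCF10A, a line of human breast epithelium that does not form tumours: the YAP-W1W2 array is set against the YAP-S94A array, and these are 2 of the 4 arrays in the series. The cells of the YAP-W1W2 array had been infected with retrovirus made from pQCXIH-YAP-W1W2, and those of the YAP-S94A array with retrovirus made from pQCXIH-YAP-S94A. The other arrays hold cells infected with the empty pQCXIH vector or with pQCXIH-YAP-WT; their intensities are printed beside some genes as context and entered no difference between the mutants, but they enter the mean by which genes were called measured. All cells kept their own YAP gene and grew in DMEM/F12 with horse serum, EGF, hydrocortisone, insulin and cholera toxin; the labels do not say whether each culture was a pool or a clone. Total RNA was labelled with biotin and hybridised to Affymetrix arrays. There was 1 array per group, so no difference below has a replicate check, and no test, standard error or p-value was computed. Intensities under 72.9 were set to that floor before log2 was taken, 19775 genes were represented by their brightest probe set, and the 12759 genes with a mean intensity of at least 113.6 are called measured. A difference was counted from 2-fold.

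YAP is a transcriptional coactivator that is kept out of the nucleus when the Hippo kinases LATS1 and LATS2 phosphorylate it. It does not bind DNA itself; TEAD transcription factors carry it to genes such as CCN1 and CCN2, and S94A alters the surface through which YAP contacts TEAD. Its WW domains, both altered in the W1W2 form, bind proline-rich motifs in other partners, among them LATS kinases, angiomotins and several transcription factors. The comparison therefore asks which transcripts separate a YAP with a defective TEAD contact from a YAP with defective WW domains.

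Both arrays had similar overall signal. The median intensity over 54613 probe sets that are not controls was 113.5 for YAP-S94A and 116.1 for YAP-W1W2, and 1.93% and 1.76% of measured genes lay at or below the floor. The bacterial hybridisation control bioB was lower on the YAP-W1W2 array by 0.26 (log2), bioC by 0.12 and bioD by 0.08, the actin control was higher by 0.12, and GAPDH differed by 0.00. Mammary epithelial markers were bright on both arrays, with KRT5, a basal keratin, at 32348 in YAP-S94A against 30482 in YAP-W1W2, and CDH1, the epithelial cadherin, at 11039 and 8295. Markers of other cells were dim or mixed. Of the immune markers, PTPRC and CD3E were at or below the floor on both arrays, the B cell marker MS4A1 stood at 130.5 and 121.1, and the monocyte marker CD14 was above the floor in YAP-S94A only (143.9). Of the endothelial markers, VWF and CDH5 were at or below the floor on both and PECAM1 stood at 481.8 and 576.8. Of the hormone-responsive markers, PGR was at or below the floor on both, ESR1 stood at 166.6 and 132.6, and TFF1 at 126.9 and 148.8. In such bulk RNA, fewer cells of a type and less RNA per cell cannot be told apart.

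The YAP targets CCN2 and IGFBP3 and the matrix genes SRGN, LOX and POSTN were far higher in YAP-W1W2 cells than in YAP-S94A cells. The chemokines CXCL8, CXCL1 and CXCL2 and the cornified envelope genes SPRR1B and CSTA were far lower. By the 2-fold rule 635 of 12759 measured genes (4.98%) were higher in YAP-W1W2 and 568 (4.45%) were lower, together 9.43%. The shares of 4.98% and 4.45% are the base against which each list count below is to be read. At 4-fold the counts were 106 and 80, and at 16-fold 10 and 1. The median gene differed by −0.07 (log2), with quartiles of −0.36 and 0.25, and across genes the log2 intensities of both arrays correlated with Pearson's r of 0.942, where genes are not independent replicates. Large differences were more frequent among dim genes: 16.3% of the 4253 dimmest measured genes differed by at least 2-fold, against 6.91% of the 4253 in the middle and 5.03% of the 4253 brightest.

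Several probe sets of a gene read the same RNA at different positions and so give a check within the arrays. The check is no replicate, because these probe sets share the RNA and the array. It was made only among called genes, so the counts have no base share over all measured genes. Of the 635 higher genes, 233 had more than 1 measured probe set; in 195 of them every probe set was higher in YAP-W1W2, and in 143 another probe set also reached 2-fold. Of the 568 lower genes, 194 had more than 1; in 153 every probe set was lower, and in 79 another reached 2-fold. Genes with probe sets in opposite directions are marked where they are named.

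**Figure D1:**
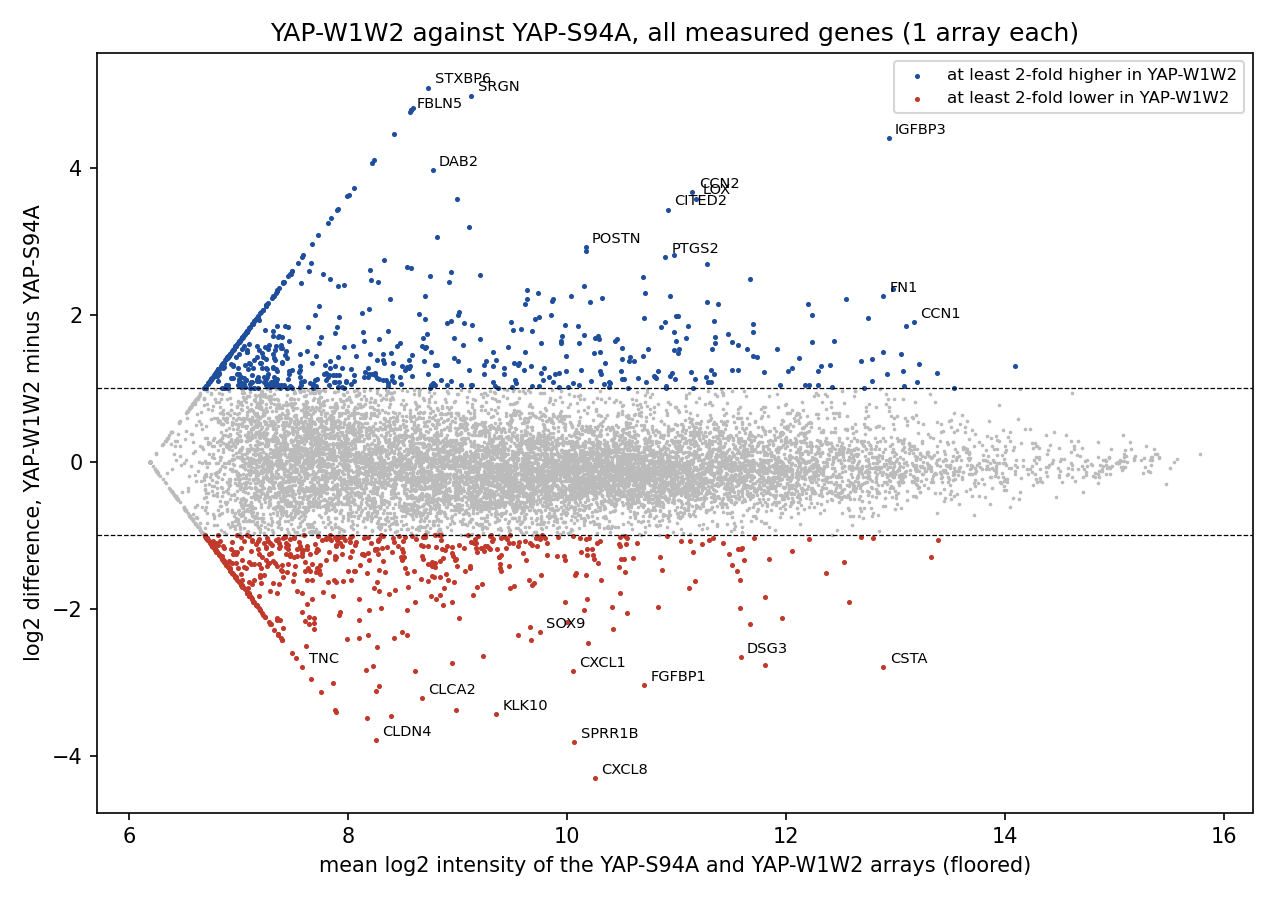
Each point is 1 of 12759 measured genes; the horizontal axis is the mean log2 intensity of the YAP-S94A and YAP-W1W2 arrays after the floor, and the vertical axis is the log2 difference, YAP-W1W2 minus YAP-S94A, with dashed lines at 2-fold. The 635 blue points are at least 2-fold higher in YAP-W1W2 and the 568 red points at least 2-fold lower; genes on the slanted edges have 1 array at the floor, so their differences are lower bounds.

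Known YAP targets differed mostly in one direction. Of 29 measured members of the list 7 were at least 2-fold higher in YAP-W1W2 and 0 lower, against 4.98% and 4.45% of all measured genes; 21 members were above 0, and the median log2 difference was 0.54, against −0.07 over all measured genes. The list drew in part on YAP expression in MCF10A cells, these samples included, so its direction has no independent support here. With another scaling of the arrays the counts stayed at 7 and 0.

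Secreted proteins were among the largest differences. CCN2, a matricellular protein and the best known TEAD-dependent YAP target, had an intensity of 322.8 (vector), 5523 (YAP-WT), 636.5 (YAP-S94A) against 8075 (YAP-W1W2). It was thus 12.7-fold higher in YAP-W1W2 than in YAP-S94A, with YAP-WT between both mutants and vector below them. IGFBP3, which binds insulin-like growth factors, stood at 2035, 19124, 1712 and 36099 in the same order. That is a 21.1-fold difference between the mutants, and its 2 measured probe sets gave log2 differences of 4.40 and 4.57. CCN1, the other matricellular target, stood at 5669, 21350, 4770 and 17804, a 3.73-fold difference. For CCN1 and IGFBP3 the YAP-S94A value was the lowest of the 4 arrays.

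INHBA and BDNF, which encode secreted signals, passed 2-fold as well. INHBA, which encodes the activin A subunit, stood at 167.4 (vector), 865.2 (YAP-WT), 208.7 (YAP-S94A) against 1136 (YAP-W1W2), a 5.44-fold difference. The neurotrophin gene BDNF stood at 335.2, 2071, 589.6 and 2762, a 4.68-fold difference. In both genes the YAP-W1W2 array was the brightest, and every measured probe set agreed in direction. ANKRD1, a nuclear ankyrin repeat protein and TEAD target, was at or below the floor in YAP-S94A (67.4) and at 273.3 in YAP-W1W2, at least 3.75-fold higher. TEAD1, which encodes the main DNA-binding partner itself, stood at 3418, 10308, 4337 and 11483, a 2.65-fold difference; the mean over its probe sets gave 0.82 (log2), under 2-fold.

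The promoters of CCN2 and ANKRD1 are shown because they carry the letters that TEAD factors recognise. Each sequence is the 250 bases before the annotated start, from RefSeq on build GRCh38.p14, written 5′ to 3′ on the gene's strand; capitals mark GGAATG (TEAD) and TGANTCA (AP-1), searched on both strands. The CCN2 sequence is the minus strand of chr6:131951373-131951622 and holds 3 TEAD matches, and the ANKRD1 sequence is the minus strand of chr10:90921088-90921337 and holds 2 TEAD matches and 1 AP-1 match.
CCN2: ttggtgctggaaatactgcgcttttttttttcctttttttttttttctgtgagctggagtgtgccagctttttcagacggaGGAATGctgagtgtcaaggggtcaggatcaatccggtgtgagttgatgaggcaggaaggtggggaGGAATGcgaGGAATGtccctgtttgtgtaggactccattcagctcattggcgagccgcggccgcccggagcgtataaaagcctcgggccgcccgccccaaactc
ANKRD1: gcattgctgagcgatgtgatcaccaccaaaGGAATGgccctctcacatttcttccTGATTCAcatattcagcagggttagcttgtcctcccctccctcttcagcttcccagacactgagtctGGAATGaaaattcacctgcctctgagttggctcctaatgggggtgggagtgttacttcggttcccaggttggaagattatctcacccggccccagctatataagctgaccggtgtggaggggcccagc
GGAATG was present in 11.9% of 27305 promoters of this length, in 9.66% of the 10368 measured genes with a promoter in the table, in 12.6% of 514 genes at least 2-fold higher in YAP-W1W2 and in 10.1% of 444 genes at least 2-fold lower. Of the measured YAP targets 20 had a promoter in the table, and 5 of these held it. A match describes letters and not a bound site, and these shares were not tested.

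The remaining 22 measured YAP targets lay within 2-fold. Upwards, the kinase gene LATS2, a Hippo kinase that YAP itself induces, stood at a log2 difference of 0.92, CRIM1 at 0.85, the ecto-nucleotidase NT5E at 0.82, the receptor TGFBR2 at 0.81 and the angiomotin-family gene AMOTL2 at 0.74. Smaller positive values were those of WWC1 (0.57), the metalloprotease ADAMTS1 and ARHGEF17 (0.54 each), TGFB2 (0.53), tissue factor F3 (0.51), the phosphatase PTPN14 (0.44), RBMS3 (0.43), GADD45A (0.19) and DOCK5 (0.16). Probe sets of WWC1, ADAMTS1, TGFB2, DOCK5 and, on the lower side, AJUBA and ASAP1 went in both directions, and those of BIRC5 ranged from −0.76 to 0.00. Downwards, the receptor tyrosine kinase AXL stood at −0.88, FJX1 at −0.82, FOXF2 and the membrane repair gene MYOF at −0.60 each, AMOTL1 at −0.46, AJUBA at −0.34, BIRC5 (survivin) at −0.28 and ASAP1 at −0.15. AXL had 1411 (vector), 5432 (YAP-WT), 1888 (YAP-S94A) against 1023 (YAP-W1W2), so that YAP-WT alone was high. F3 and NT5E were, in contrast, high in both mutants: F3 stood at 9189 in YAP-S94A and 13058 in YAP-W1W2 against 2248 in vector.

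**Figure D2:**
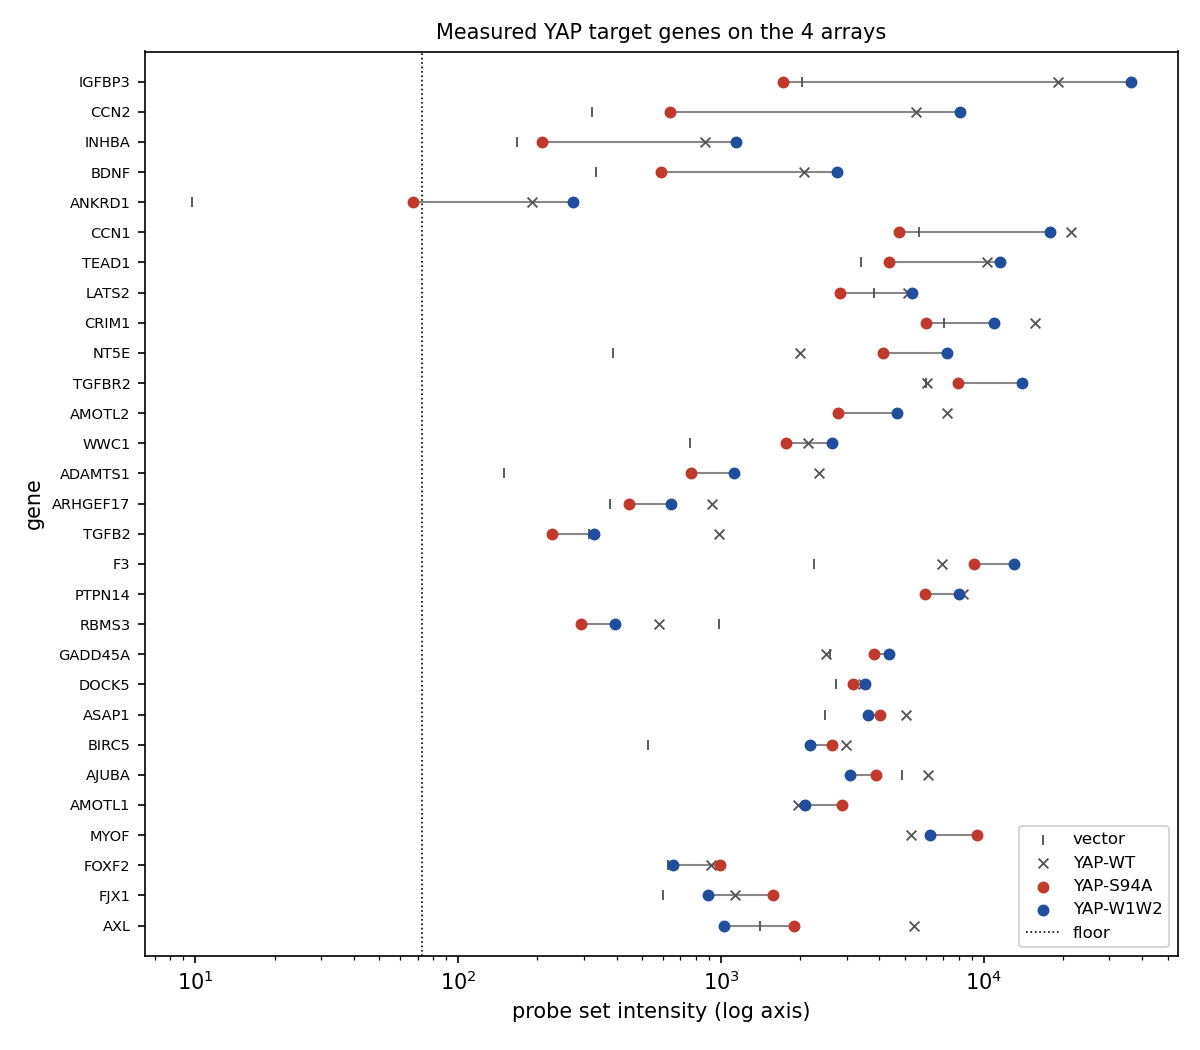
Intensities on a log axis of the 29 measured YAP targets on the 4 arrays, ordered by the difference between YAP-W1W2 (blue) and YAP-S94A (red), with vector as a bar and YAP-WT as a cross and the floor of 72.9 as a dotted line. IGFBP3, CCN2, INHBA, BDNF, ANKRD1, CCN1 and TEAD1 are at least 2-fold higher in YAP-W1W2, and AXL at the bottom has its highest value in YAP-WT.

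Hippo pathway components differed little. Of 26 measured members, 2 were at least 2-fold higher in YAP-W1W2 (7.69%) and 0 lower: TEAD1, named above, and VGLL1, a TEAD cofactor, at 97.2 and 212.7. TEAD4 stood at a log2 difference of 0.50, TEAD3 at −0.27 and TEAD2 at −0.66, the last with probe sets in both directions. The brightest YAP1 probe set gave 4085.5 (vector), 3461.5 (YAP-WT), 4208 (YAP-S94A) against 4657 (YAP-W1W2). The 3 measured YAP1 probe sets spanned −0.12 to 0.15 between the mutants, so YAP1 signal was close on both arrays. The YAP-WT array was below vector, and whether these probe sets read the constructs is not known here. Equal expression of the mutant forms therefore cannot be read from them. WWTR1, which encodes the YAP paralogue TAZ, stood at −0.46, with probe sets in both directions.

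Genes of the extracellular matrix, the protein scaffold around cells, held several of the largest upward differences. In the list of matrix glycoproteins and proteoglycans, 7 of 22 measured members were higher in YAP-W1W2 by 2-fold or more and 1 was lower, at a median of 0.39. These are 31.8% and 4.55%, against 4.98% and 4.45% of all measured genes. SRGN, which encodes the granule proteoglycan serglycin, had the largest upward difference where both arrays exceeded the floor, 31.6-fold. It stood at 631.7 (vector), 4610 (YAP-WT), 99.5 (YAP-S94A) against 3144 (YAP-W1W2). The YAP-S94A value was not far above the floor, and the 2 measured SRGN probe sets gave 3.72 and 4.98 (log2). FBLN5, an elastic fibre protein, was below the floor in YAP-S94A (16.4) and at 1976 in YAP-W1W2, at least 27.1-fold higher. For SRGN the YAP-S94A value was the lowest of the 4 arrays; for FBLN5 vector (35.3) was below the floor as well. Periostin (POSTN) stood at 4014, 3736, 418.7 and 3176 on the arrays in the same order, 7.59-fold higher in YAP-W1W2; here YAP-S94A alone was low. Fibronectin (FN1) was 4.75-fold higher, at 3483 and 16527 in the mutants, and the microfibril genes FBN1 and FBN2 were 4.01-fold and 3.61-fold higher. Thrombospondin 1 (THBS1) was brighter by 2.14-fold in its brightest probe set, with other probe sets in both directions. The exception was tenascin C (TNC), a matrix glycoprotein of remodelling tissue, at 503.7 in YAP-S94A and 62.8, under the floor, in YAP-W1W2, at least 6.91-fold lower.

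Among collagens, 4 of 14 measured genes (28.6%) were higher by 2-fold or more and 1 (7.14%) was lower, at a median of 0.36. COL12A1, a fibril-associated collagen, stood at 3611 (vector), 14153 (YAP-WT), 1379 (YAP-S94A) against 7683 (YAP-W1W2), a 5.57-fold difference. COL4A1 and COL4A2, the paired chains of basement membrane collagen, were 3.78-fold and 3.11-fold higher in YAP-W1W2, and COL8A1 was 3.73-fold higher. These genes were all brighter in YAP-W1W2 by every measured probe set. COL7A1, the anchoring fibril collagen, was at least 2.04-fold lower, at 148.7 and 27.0, with probe sets in both directions, and it was under 2-fold after median centring.

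Enzymes that crosslink or remodel matrix split by kind. Of 24 measured members 6 were at least 2-fold higher, 3 lower, and the median was 0.33. The lysyl oxidase gene LOX, which crosslinks collagen and elastin, stood at 2695 (vector), 5315 (YAP-WT), 670.9 (YAP-S94A) against 8023 (YAP-W1W2). Its log2 difference was 3.58, and its 3 probe sets gave 2.49 to 3.63. LOXL4 was 3.13-fold, the transglutaminase TGM2 2.55-fold, the protease inhibitors SERPINE2 3.29-fold and TIMP2 2.32-fold higher. TIMP3 and TIMP1 were picked out after their values were seen. TIMP3 was 2.06-fold higher, while TIMP1 was lower but within 2-fold, at 17354 and 10553 (−0.72, log2). The members at least 2-fold lower were plasminogen activation genes. PLAU (urokinase) stood at 627.6 and 119.5, a 5.25-fold difference. PLAT (tissue plasminogen activator) stood at 899.9 and 322.3, 2.79-fold, and the urokinase receptor PLAUR at 3116 and 1122, 2.78-fold. PLAU and PLAT were lowest in YAP-W1W2 of the 4 arrays. With probe sets lacking the _s_at, _x_at or _a_at suffix only, 3 members of this list were higher and 1 lower.

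Of 19 measured mesenchymal genes, whose median was 0.22, 5 were higher (LOX, POSTN, FN1, the neural cadherin CDH2 at 2.79-fold and the protease FAP at 2.22-fold) and 2 lower (S100A4 at 2.84-fold and TWIST2 at 2.43-fold, the latter with probe sets in both directions). These counts are 26.3% and 10.5%, against 4.98% and 4.45% of all measured genes. This list shares LOX, POSTN and FN1 with the matrix lists. With unsuffixed probe sets only, 12 genes of the list were measured and 1 was higher and 1 lower. Of 9 measured fibroblast genes, with a median of 0.81, 4 were higher (FBN1, PDPN, FAP and MEG3) and 0 lower. Over all 15 fibroblast genes with a probe set the summed intensity was 15026 (vector), 13286 (YAP-WT), 4394 (YAP-S94A) against 8867 (YAP-W1W2). Both mutants thus lay below vector and YAP-WT. In YAP-S94A 12 of these genes were above the floor, and in YAP-W1W2 11. PDGFRB was at or below the floor on both mutant arrays. PDGFRA was above it in YAP-S94A only (134.6), LUM in YAP-W1W2 only (113.1), and THY1 stood at 246.0 and 316.6. The part of other cell types in the matrix differences was not tested.

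**Figure D3:**
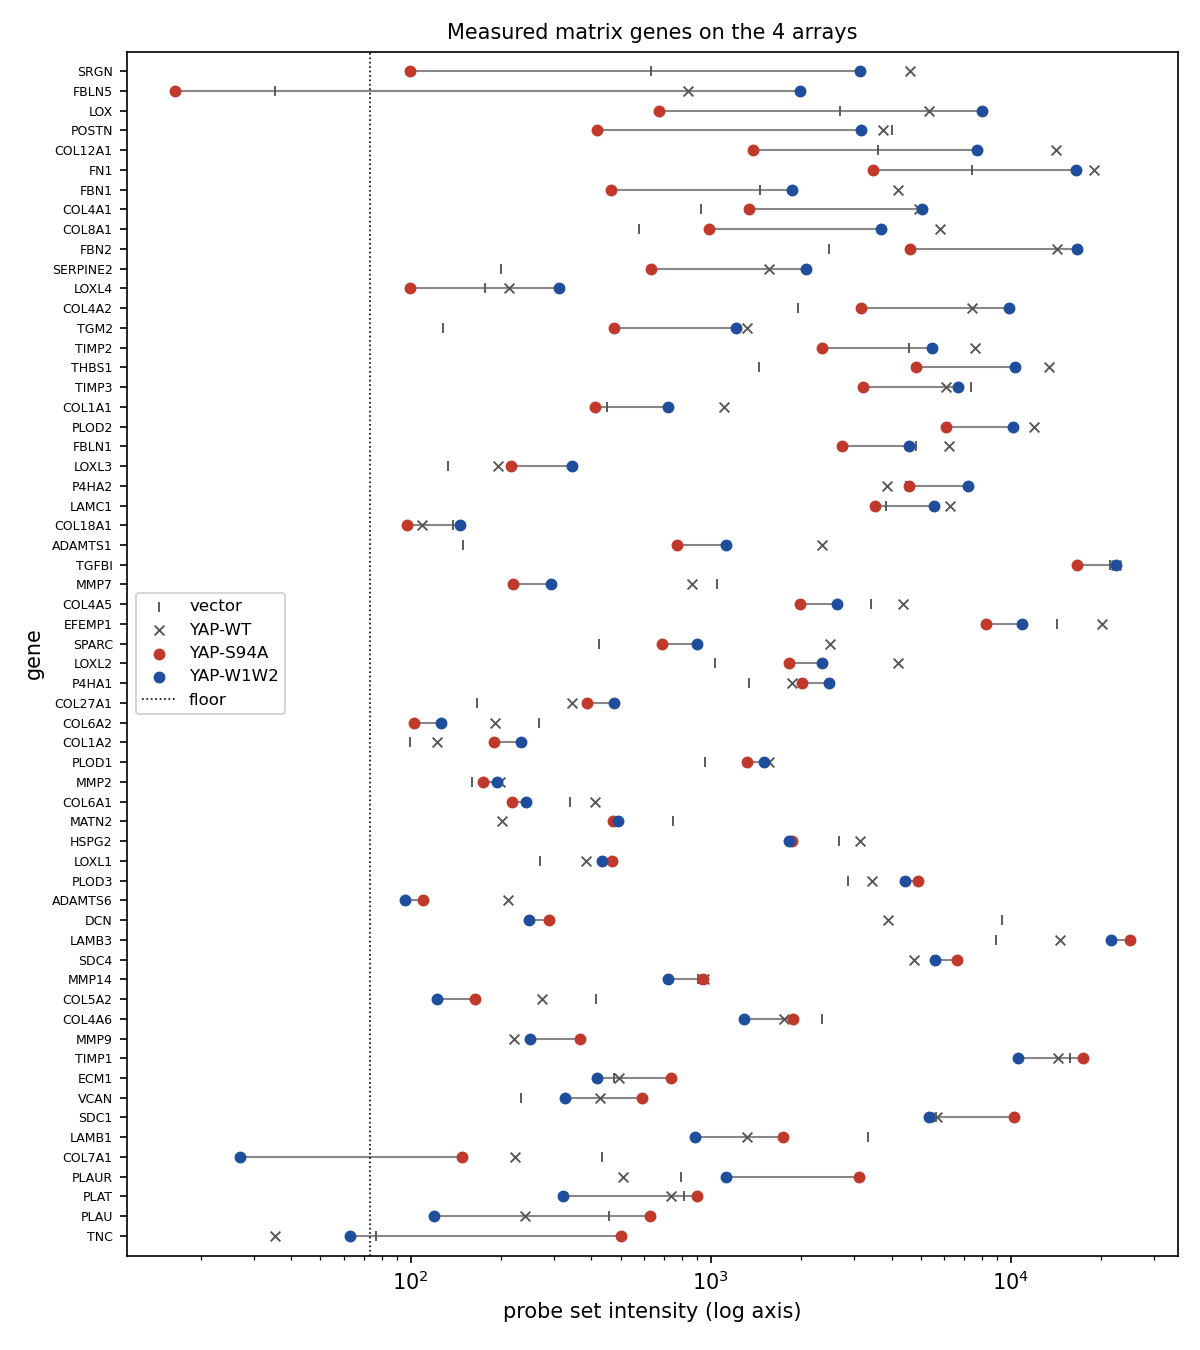
Intensities on a log axis of the measured collagens, matrix glycoproteins and proteoglycans, and crosslinking or remodelling enzymes on the 4 arrays, ordered by the difference between YAP-W1W2 (blue) and YAP-S94A (red), with vector as a bar, YAP-WT as a cross and the floor of 72.9 dotted. SRGN, FBLN5, LOX and POSTN are at the top, and TNC, PLAU, PLAT and PLAUR are at the bottom.

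Integrins and actin genes gave smaller counts. Of 14 measured integrin subunits 1 was higher, the collagen receptor subunit ITGA2, at 979.6 in YAP-S94A and 3518 in YAP-W1W2 (3.59-fold), and 2 were lower, ITGB8 (log2 difference −1.32) and the hemidesmosome subunit ITGB4 (2.03-fold); ITGB4 was under 2-fold after rescaling, and the list median of −0.07 was 0.00 after median centring. Of 20 measured actin cytoskeleton and SRF genes 3 were higher and 0 lower, and their median was 0.21. The tropomyosins TPM1 and TPM2, which stabilise actin filaments, were 2.46-fold and 2.82-fold higher, and SRF was at least 3.32-fold higher with probe sets in both directions; 1 member was higher with the mean over probe sets.

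Of the 45 lists, keratinocyte differentiation had the largest share of members on the lower side. In this list 16 of 32 measured members were lower in YAP-W1W2 (50.0%, against 4.45% of all measured genes) and 3 higher, at a median of −1.08. The list was not uniform, with 21 members below 0 and 11 above. Above 0 were the cornified envelope genes IVL (0.71), EVPL (0.64) and PPL (0.23), named after their values were seen. Without the filter on dim genes 44 members were counted, 16 were lower, 3 higher, and the median was −0.25. SPRR1B, a small proline-rich precursor of the cornified envelope, stood at 7996 (vector), 1169 (YAP-WT), 4024 (YAP-S94A) against 286.6 (YAP-W1W2). Its log2 difference was −3.81, with YAP-W1W2 the lowest of the 4 arrays, while YAP-S94A lay nearest to vector. SPRR3 stood at 1279 and 190.9 in the mutants (6.70-fold lower), with another probe set in the opposite direction. CSTA, a protease inhibitor of the cornified envelope, stood at 22999, 5042, 19972 and 2894, 6.90-fold lower in YAP-W1W2 than in YAP-S94A.

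Some proteases and protease inhibitors were among the lower members. The kallikreins KLK10 and KLK7, serine proteases of epithelial shedding, were 10.8-fold and 5.54-fold lower, at 2153 and 199.7 for KLK10 and 2754 and 497.6 for KLK7. The serpin SERPINB13 was 7.20-fold lower, and its 4 probe sets ranged from −2.85 to −1.34 (log2). CLCA2, a chloride channel regulator of stratified epithelium, stood at 6565 (vector), 1240 (YAP-WT), 1246 (YAP-S94A) against 134.6 (YAP-W1W2), 9.25-fold lower in YAP-W1W2 than in YAP-S94A. For this gene YAP-S94A lay at the level of YAP-WT and not of vector. S100A7 and S100A8, antimicrobial calcium-binding proteins of stressed keratinocytes that were picked out after their values were seen, were lower by at least 4.60-fold and by 3.63-fold, the first with YAP-W1W2 under the floor. The 3 genes on the higher side were all keratins: KRT4 (5.83-fold) and KRT13, keratins of stratified mucosa, and KRT80; the last 2, also picked out afterwards, were 3.06-fold and 2.08-fold higher. KRT13 stood at 778.5, 137.6, 565.1 and 1731, so YAP-W1W2 and YAP-WT were at opposite ends.

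The SPRR1B promoter is shown for the letters of AP-1, a factor known to drive small proline-rich genes. The sequence is the plus strand of chr1:153030953-153031202 (RefSeq, GRCh38.p14), 5′ to 3′, and capitals mark 2 AP-1 matches (TGANTCA) and 1 TEAD match (GGAATG) on either strand.
SPRR1B: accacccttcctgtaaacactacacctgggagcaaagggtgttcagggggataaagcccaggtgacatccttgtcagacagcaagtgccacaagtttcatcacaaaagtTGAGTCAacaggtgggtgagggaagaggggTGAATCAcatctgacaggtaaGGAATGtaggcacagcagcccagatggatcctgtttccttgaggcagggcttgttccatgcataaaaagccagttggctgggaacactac
TGANTCA was present in 6.60% of all promoters of this length, in 4.01% of those of measured genes, in 8.33% of those of genes at least 2-fold lower in YAP-W1W2 and in 6.42% of those of genes at least 2-fold higher. These shares were not tested either.

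Epithelial junction genes as a list showed few large differences. By the 2-fold rule 2 of 27 measured members were lower and 0 higher, and the median was −0.32. The tight junction claudin CLDN4 stood at 261.2 (vector), 54.5 (YAP-WT), 1130 (YAP-S94A) against 82.4 (YAP-W1W2), 13.7-fold lower in YAP-W1W2. Only the YAP-S94A array was high, and the YAP-W1W2 value was near the floor. The desmosomal cadherin DSG3 stood at 11952, 1863, 7712 and 1231, 6.26-fold lower. Of 14 measured genes of basal mammary cells, 0 were higher and 2 lower, KRT15 (6996 and 1523, 4.60-fold) and ITGB4, with a median of −0.05 that was 0.03 after median centring. Of 16 measured luminal genes 2 were higher, the luminal transcription factor GATA3 (1458 and 4723, 3.24-fold) and KRT8 (7012 and 16277, 2.32-fold), and 1 lower, ELF3 (2.29-fold); the median was 0.23.

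Transcription factors of epithelial fate went both ways, with 2 of 17 higher, 3 lower and a median of −0.20. SOX9, a progenitor factor, stood at 991.2 (vector), 357.9 (YAP-WT), 1923 (YAP-S94A) against 386.3 (YAP-W1W2), 4.98-fold lower in YAP-W1W2. Both measured probe sets of SOX9 were lower. GRHL3, a factor of epidermal barrier formation, was 2.66-fold lower, and ID2 and ID3, inhibitors of basic helix-loop-helix factors, were 3.18-fold and 2.12-fold higher. Of 7 measured stem-like genes 0 were higher and 2 lower, SOX9 and the endothelial protein C receptor gene PROCR (2.90-fold), with a median of −0.80.

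Inflammatory cytokine genes, listed together with NF-kB genes, held several of the largest downward differences: 8 of 25 measured members were lower by at least 2-fold (32.0%, against 4.45% of all measured genes) and 2 were higher, at a median of −0.59. With unsuffixed probe sets only, 15 members were measured, 3 were lower and 2 higher, at a median of −0.55. CXCL8, the neutrophil chemokine interleukin-8, had the largest downward difference where both arrays exceeded the floor: 644.9 (vector), 189.8 (YAP-WT), 5414 (YAP-S94A) against 275.1 (YAP-W1W2), 19.7-fold lower. Its 2 measured probe sets gave −4.30 and −4.01 (log2). Of the related chemokines, CXCL1 was 7.16-fold and CXCL2 5.15-fold lower, with CXCL1 at 2137, 348.7, 2842 and 397.1. For these chemokines YAP-W1W2 lay near YAP-WT, and YAP-S94A was the highest array.

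Among interleukin-1 genes, IL1A and IL1RN passed 2-fold and IL1B (−0.68, named after its value was seen) did not. IL1A, an epithelial alarm cytokine, stood at 2356 (vector), 731.4 (YAP-WT), 2185 (YAP-S94A) against 483.3 (YAP-W1W2), 4.52-fold lower, and its antagonist IL1RN was 3.56-fold lower. CCL28 and the granulocyte factor CSF3 were 4.48-fold and 3.82-fold lower. The NF-kB feedback gene TNFAIP3, picked out after its values were seen, was 2.01-fold lower, just past the threshold; 7 members were lower after median centring. The NF-kB subunit genes NFKB2 (−0.71), NFKB1 (−0.28) and RELB (−0.09) and the related gene NFKBIZ (−0.54) were lower in YAP-W1W2 but within 2-fold. The inhibitor gene NFKBIA stood at 0.29. These genes were also named afterwards. PTGS2, which encodes cyclooxygenase-2, stood at 180.7, 1172, 727.8 and 4991, 6.86-fold higher in YAP-W1W2, and the chemokine CCL20, at 2740 and 7270.3 in the mutants and picked out after its values were seen, was 2.65-fold higher. The promoter of CXCL8 is shown for its NF-kB and AP-1 letters: it is the plus strand of chr4:73740319-73740568 (RefSeq, GRCh38.p14), 5′ to 3′, and capitals mark 1 match to GGAATTTCC (NF-kB) and 1 to TGANTCA (AP-1), both strands searched.
CXCL8: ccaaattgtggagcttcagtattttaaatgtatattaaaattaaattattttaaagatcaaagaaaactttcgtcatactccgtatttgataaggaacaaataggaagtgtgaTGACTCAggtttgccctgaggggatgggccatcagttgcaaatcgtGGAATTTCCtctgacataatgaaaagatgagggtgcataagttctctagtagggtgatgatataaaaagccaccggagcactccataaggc
GGAATTTCC was present in 0.428% of all promoters of this length and in 0.376% of those of measured genes. It was present in 5 of 444 (1.13%) of genes at least 2-fold lower in YAP-W1W2 and in 1 of 514 (0.195%) of those higher. CXCL8 itself is among the 5, and only these exact letters, which are those of its own site, were searched. These few matches were not tested.

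**Figure D4:**
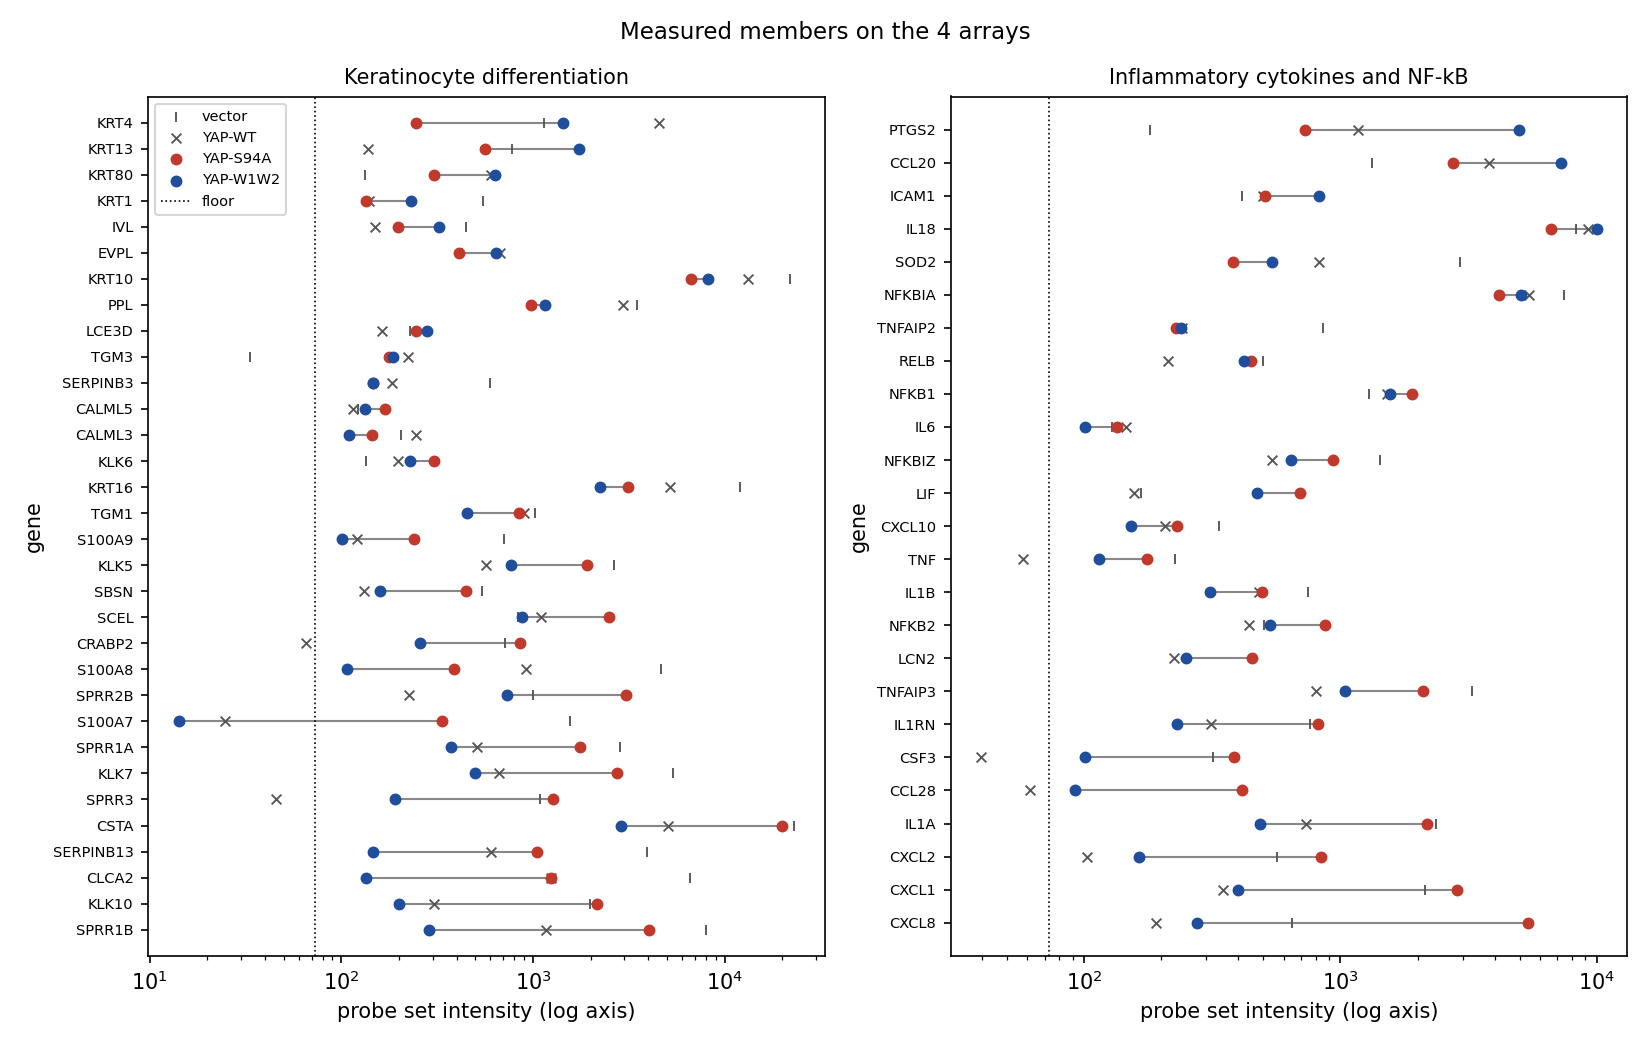
Intensities on a log axis of the measured keratinocyte differentiation genes (left) and inflammatory cytokine and NF-kB genes (right) on the 4 arrays, each ordered by the difference between YAP-W1W2 (blue) and YAP-S94A (red), with vector as a bar, YAP-WT as a cross and the floor of 72.9 dotted. SPRR1B, KLK10 and CLCA2 at the lower left and CXCL8 and CXCL1 at the lower right are far higher in YAP-S94A, while KRT4 and PTGS2 at the top are higher in YAP-W1W2.

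Interferon-responsive genes counted 6 of 35 lower (17.1%) and 1 higher, at a median of −0.10, near that of all genes; with the stricter filter on dim genes 3 of 27 were lower. The lower ones were ISG20 (3.30-fold), IFI27 (2.81-fold), the tetherin gene BST2 (2.67-fold), SAMD9 (2.35-fold), OASL (2.20-fold) and DDX60 (2.02-fold, under 2-fold after median centring), and IFIT2 was 3.00-fold higher. OASL had probe sets in both directions, and its single unsuffixed probe set stood at 0.91. Of 14 antigen presentation genes 2 were higher, the peptide transporter TAP2 (3.10-fold) and HLA-DMA (2.39-fold), and 1 lower, the protease CTSS (at least 2.68-fold), with a median of 0.20. Of 4 measured immune cell genes 1 was higher, the lysosomal LAPTM5, at 2848 (vector), 3969 (YAP-WT), 755.1 (YAP-S94A) against 3726 (YAP-W1W2) (4.93-fold); the list median was 0.14. Of 4 measured endothelial genes 0 reached 2-fold in either direction and the median was 0.34; ROBO4 stood at 0.91 and FLT1 at 0.42 (log2).

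**Figure D5:**
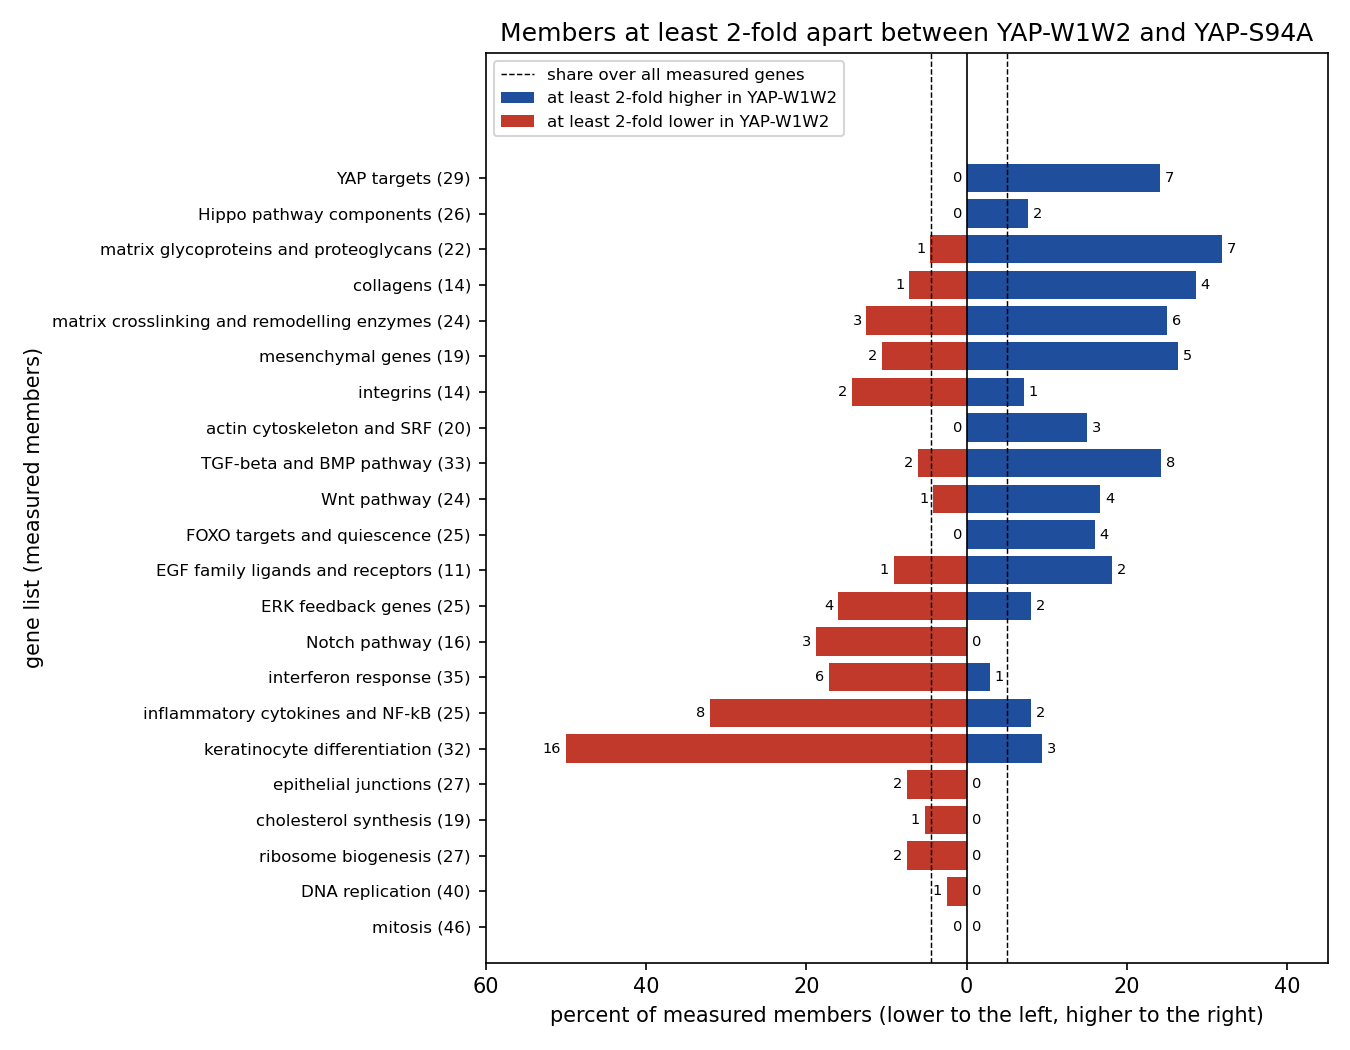
Percent of the measured members of 22 gene lists that were at least 2-fold higher (blue, to the right) or lower (red, to the left) in YAP-W1W2 than in YAP-S94A, with the number of genes at each bar and the number measured after each list's name; dashed lines are the shares over all measured genes, 4.98% and 4.45%. Bars of the matrix, YAP target and TGF-beta lists extend to the right, and keratinocyte differentiation and cytokine lists to the left.

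TGF-beta and BMP pathway genes counted 8 of 33 higher (24.2%) and 2 lower (6.06%), while their median of 0.03 was close to that of all genes. Apart from INHBA, the higher ones included SMAD6 (20.9 and 441.2, at least 6.05-fold) and SMAD7 (2.29-fold), the inhibitory SMADs, the pseudoreceptor BAMBI (2.11-fold), the repressor SKIL (2.11-fold), ID2 and ID3. PMEPA1, another feedback gene, was picked out after its values were seen and was 2.08-fold higher. Several of these are induced by the pathway and restrain it. The ligand gene TGFB1 was 2.27-fold lower, at 990.8 and 436.8, and LTBP2, also picked out afterwards, was 2.01-fold lower.

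Wnt pathway genes counted 4 of 24 higher (16.7%) and 1 lower (4.17%), at a median of 0.32, and 6 higher after median centring. WNT5A, a ligand of non-canonical signalling, stood at 1976 (vector), 5462 (YAP-WT), 191.0 (YAP-S94A) against 911.6 (YAP-W1W2), a 4.77-fold difference. The receptor genes FZD7 (2.71-fold), FZD4 (at least 2.24-fold) and FZD1 (2.05-fold) were also higher, and WNT10B was at least 3.98-fold lower. Notch pathway genes counted 0 of 16 higher and 3 lower, at a median of −0.42, which was −0.02 without the filter on dim genes. HES1, the classical Notch target, stood at 897.7, 275.1, 1078 and 247.0, 4.37-fold lower in YAP-W1W2 than in YAP-S94A; the receptor NOTCH3 was 2.29-fold lower, and HES2 2.56-fold with probe sets in both directions.

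ERK feedback genes counted 2 of 25 higher and 4 lower, at a median of −0.25. FOSL1, an AP-1 subunit, stood at 301.0 (vector), 448.2 (YAP-WT), 2007 (YAP-S94A) against 775.3 (YAP-W1W2), 2.59-fold lower, and the ERK phosphatase DUSP7 (2.47-fold), PLAUR and MYC (2.04-fold) were lower too. MYC stood at 10186 and 4994 and was under 2-fold after median centring. DUSP2 (2.54-fold) and the receptor EPHA4 (at least 3.33-fold) were higher. Among 18 immediate early genes 1 was higher, FOSL2 (2.12-fold), and 2 lower, FOSL1 and MYC, with a median of −0.25. Of 11 EGF family ligands and receptors 2 were higher, the ligand BTC (2.65-fold) and the EGFR inhibitor ERRFI1 (2.06-fold), and 1 lower, NRG1 (2.04-fold, under 2-fold after median centring), with a median of −0.08.

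Guidance and Eph genes counted 3 of 29 higher and 4 lower, at a median of −0.07 that was 0.01 after median centring. SLIT2, a secreted guidance ligand, stood at 181.3, 2071, 497.6 and 1517, 3.05-fold higher in YAP-W1W2 than in YAP-S94A, and SEMA4D was 2.31-fold higher. The semaphorin receptors NRP1 and NRP2 were 3.03-fold and 2.15-fold lower, SEMA4B 2.86-fold and the ephrin EFNB2 2.32-fold. All 7 measured probe sets of NRP2 were lower.

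Few cell division genes reached 2-fold. In the mitosis list 0 of 46 genes reached 2-fold in either direction, with a median of −0.27; the largest differences were those of KIF14 (−0.72) and the condensin gene NCAPG (−0.71). Of 40 DNA replication genes 0 were higher and 1 lower, GINS4, 2.85-fold in its brightest probe set with another in the opposite direction, and the median was −0.15. Among 21 G1 cyclins and CDK inhibitors, cyclin D2 (CCND2) was 2.91-fold lower, at 1968 and 676.8, and the inhibitors CDKN1C and CDKN2D were 2.34-fold and 2.05-fold higher; the median of −0.05 was 0.02 after median centring. Of 11 measured histone genes, 2 were higher: H2BC4 (2.99-fold) and the linker histone H1-2 (2.38-fold), and 0 lower, at a median of 0.49 that was 0.00 without the filter on dim genes. Of 26 p53 targets 0 were higher and 1 lower, BAX (2.23-fold), with a median of −0.12. Of 25 apoptosis regulators 2 were higher, the death-associated kinase DAPK1 (3.85-fold) and TNFRSF21 (2.41-fold), and 3 lower, BIK (3.50-fold), BMF (at least 2.28-fold) and BAX, with a median of −0.07 that was 0.01 after median centring.

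Genes of ribosome production had small negative differences. All 27 measured ribosome biogenesis genes were below 0, with a median of −0.51, or −0.44 after median centring, against −0.07 over all genes. Of all 12759 measured genes 7265 were below 0. Several other lists leaned the same way, with 29 of 32 splicing factors and 24 of 29 respiratory chain genes below 0. The same held for 39 of 46 mitosis genes and 33 of 40 DNA replication genes. By the 2-fold rule 2 ribosome biogenesis genes were lower, NIP7 (2192 and 1006, 2.18-fold) and RRP9 (1208 and 597.7, 2.02-fold), and 0 higher. After rescaling 1 was lower. Cytosolic ribosomal proteins counted 0 of 27 in either direction, with a median of −0.05 that was 0.02 after median centring and RPS25 at −0.38 and RPS9 at −0.31 the farthest. The respiratory chain list also had 0 of 29 in either direction and a median of −0.15, with NDUFS1 and COX15 at −0.49 each. Splicing factors had 0 of 32 higher and 1 lower, the kinase CLK1 (2.37-fold), with a median of −0.39.

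FOXO targets and quiescence genes counted 4 of 25 higher and 0 lower, at a median of 0.35. CITED2, a regulator of the CBP and p300 coactivators, stood at 4671 (vector), 6488 (YAP-WT), 592.7 (YAP-S94A) against 6388 (YAP-W1W2), 10.8-fold higher; YAP-S94A alone was low. The ubiquitin ligase FBXO32 was at least 2.65-fold higher, at 63.4 and 193.4 against 2422 in vector, YPEL3 was 2.22-fold and the repressor BCL6 2.05-fold higher. With the mean over probe sets 2 members were higher. Of 19 glucocorticoid-responsive genes 3 were higher, the kinase SGK1 (3579 and 18231, 5.09-fold), KLF15 (at least 3.93-fold) and ERRFI1, and 2 lower, the lipase inhibitor ANGPTL4 (4029 and 1222, 3.30-fold) and RGS2 (2.45-fold), with a median of 0.21.

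The counts in the metabolic lists were small, but most shares exceeded those of all measured genes, 4.98% higher and 4.45% lower. Higher and lower shares were 6.25% and 18.75% for fatty acid synthesis and 10.0% each for NRF2 and AHR targets. They were 6.25% and 12.5% for retinoid genes and 10.0% and 6.67% for unfolded protein genes. Hypoxia and glycolysis genes had 6.90% and 3.45%, and cholesterol synthesis genes 0.0% and 5.26%. Cholesterol synthesis genes had 0 of 19 higher and 1 lower, MVD (2.23-fold), with a median of −0.33, and fatty acid synthesis genes 1 of 16 higher and 3 lower, at a median of −0.48. The desaturase SCD was 2.57-fold lower, at 9486 and 3695, the lipogenic factor SREBF1 2.16-fold and PNPLA3 2.02-fold (under 2-fold after median centring), while THRSP was at least 3.46-fold higher with probe sets in both directions; after quantile normalization 1 member was lower. Hypoxia and glycolysis genes counted 2 of 29 higher, adrenomedullin (ADM, 2.91-fold) and NDRG1 (2.11-fold), and 1 lower, ANGPTL4, with a median of −0.10. Unfolded protein and amino acid response genes counted 3 of 30 higher, VLDLR (at least 10.9-fold), CHAC1 (2.72-fold) and the cystine transporter SLC7A11 (2.14-fold), and 2 lower, PSPH (2.46-fold) and TRIB3 (2.21-fold), with a median of −0.13. NRF2 and AHR targets counted 2 of 20 each way, with TXNRD1 (2.58-fold) and SLC7A11 higher and the aldehyde dehydrogenase ALDH3A1 (3.27-fold) and AKR1C3 (2.28-fold) lower; the median of −0.02 was 0.06 after median centring. Retinoid genes counted 1 of 16 higher, TGM2, and 2 lower, CRABP2 (3.30-fold) and RARRES1 (2.81-fold), with a median of 0.08.

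Several of the largest differences lay outside these lists. On the higher side, the endocytic adaptor DAB2 stood at 204.8 (vector), 1668 (YAP-WT), 110.6 (YAP-S94A) against 1732 (YAP-W1W2), 15.7-fold higher, and all 4 of its measured probe sets were higher by 3.11 to 3.98 (log2). RGCC was 11.9-fold, the transporter ABCA8 8.34-fold, the neuron navigator NAV3 7.30-fold, NFYB, a subunit of the CCAAT-binding factor NF-Y, 7.03-fold, ANHX 6.74-fold and the steroidogenic enzyme HSD3B1 6.50-fold higher. The HSD3B1 value in YAP-S94A was 79.5, near the floor. Below the floor in YAP-S94A were STXBP6 (at least 34.1-fold higher, with a probe set in the opposite direction), the aquaporin AQP9 (28.0-fold), the non-coding RNA BCAR4 (27.5-fold), SV2B (27.4-fold), CLIC5 (22.1-fold), CAPN6 (17.2-fold) and the oxidised LDL receptor OLR1 (16.7-fold), all as lower bounds. The YAP-WT value of OLR1 was 2764, against 1219 in YAP-W1W2 and 65.2 in YAP-S94A.

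On the lower side, FGFBP1, a carrier that releases fibroblast growth factors, stood at 2834 (vector), 1928 (YAP-WT), 4800 (YAP-S94A) against 583.1 (YAP-W1W2), 8.23-fold lower. ABCA12, the lipid transporter of the epidermal barrier, was 7.09-fold lower, at 764.8 and 107.9. AMIGO2 (log2 difference −3.46) and the histone chaperone HIRA (10.4-fold) each rested on 1 measured probe set. So did the ETS repressor ERF (8.03-fold) and MATR3 (11.1-fold), which were near the floor in YAP-W1W2, at 82.4 and 86.7. The brightest probe set of ZBTB40 was 8.71-fold lower while another stood at −0.02, and probe sets of the protocadherin PCDH1 (8.30-fold) went in both directions. Below the floor in YAP-W1W2 were TMCC3 (at least 10.5-fold lower), COXFA4L3 (10.4-fold), the receptor phosphatase PTPRZ1 (8.74-fold), DGKD (7.73-fold), FHOD3 (6.35-fold), RHOBTB2 (6.06-fold) and the acute-phase serpin SERPINA3 (5.34-fold), again as lower bounds.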

How the data were processed

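Intensities were deposited by the authors as 1 value per probe set and array on a linear scale; per the submitters' processing notes the software was GCOS, and those notes name no version or scaling target. Of 54675 probe sets, 62 controls were left out; 41091 others had exactly 1 symbol in the platform annotation, 1801 several and 11721 none, and 41037 of the first matched the RefSeq gene table of GRCh38.p14, which served to check names. Because the trimmed means (2% at each end) of the 4 arrays differed by at most 1.098-fold, within the 10% allowed, values were not rescaled. The floor is the 40th percentile of all intensities, and measured genes reach the median of the probe sets' mean over 4 arrays. Folds with 1 side at the floor are lower bounds. The number of arrays limits the precision.

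Up to 15 genes each way above the floor, 8 each way at it, all YAP targets, and up to 8 members of each other list at least 2-fold apart (or the 2 largest) could be named; exceptions are marked. The members and the 45 gene lists were chosen with earlier results of these data known. Computations used Python 3.11.15, numpy 2.4.6 and pandas 2.3.3. The code was run on simulated data made from the YAP-S94A array, with large changes put into bright genes and little noise. That run checks the code only and cannot show how reliable the differences of dim genes are.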

Additional observations from a re-analysis of the deposited data

How the results depend on the processing

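No paired analysis was possible because each group has 1 array and the labels carry no replicate numbers. The counts of 635 genes at least 2-fold higher and 568 lower became 345 and 345 with a filter at the 65th percentile, 1514 and 1679 at 1.5-fold, and 226 and 171 at 3-fold. Under the other 8 settings they ranged from 492 to 807 and from 439 to 683. The share of higher genes among those called was 52.8%, and 61.1% after median centring. The keratinocyte differentiation median of −1.08 became −0.25 without the filter on dim genes. Of 211 named genes, 154 had a value with unsuffixed probe sets and 183 with the stricter filter, and all had one under the other settings. Among those with a value 1 changed direction: OASL, from −1.14 to 0.91 with unsuffixed probe sets; the cause was not tested. With the mean over probe sets 18 of the 211 were no longer 2-fold apart. Of 45 list medians, 28 kept their sign under all 9 settings.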

Other observations

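Pregnancy-specific glycoproteins, secreted members of the carcinoembryonic antigen family best known from placenta, were higher in YAP-W1W2 as a family; the family was picked out after its values were seen. Each of the 8 measured PSG genes exceeded its YAP-S94A value by at least 2-fold, with a median log2 difference of 1.92. PSG1 stood at 337.0 (vector), 1026 (YAP-WT), 181.5 (YAP-S94A) against 1665 (YAP-W1W2), and PSG4 at 932.6, 2277, 1157 and 3628. All 13 measured probe sets of these genes were above 0, but 12 carry the _s_at, _x_at or _a_at suffix, and such near-identical genes can share probes, so the 8 genes are not 8 separate observations. Kallikreins, also picked out afterwards, showed the opposite pattern, with a median of −1.03. At least 2-fold lower were 6 of 11 measured KLK genes and 0 were higher, against 4.45% and 4.98% of all measured genes. The highest KLK gene stood at 0.97 (log2), just under 2-fold. Of these genes KLK5, KLK6, KLK7 and KLK10 were already counted in the keratinocyte differentiation list. Zinc finger genes with a ZNF symbol counted 18 of 333 each way.

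The arrays that entered no difference were also set beside the called genes. Of the 635 genes higher in YAP-W1W2, the YAP-WT intensity was nearer on the log2 scale to YAP-W1W2 for 458 (72.1%) and nearer to YAP-S94A for 177. Of the 568 lower genes it was nearer to YAP-W1W2 for 257 (45.2%) and nearer to YAP-S94A for 311. The vector intensity was nearer to YAP-S94A for 398 of the higher and 375 of the lower genes. The same counts were not made over all measured genes, so 72.1% and 45.2% have no base share to be read against. The called genes were also chosen by the values of the mutant arrays used here as reference points. These counts come from single arrays and were not tested.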
